A study of Sparus aurata with 9 samples.

Results

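The 150 brightest array sequences of unexposed gilthead sea bream liver carried between 61.5% and 69.3% of the signal on an array, with 1 averaged value per sequence, and most of them stayed among the brightest sequences after 24 h of exposure to gold nanoparticles (AuNP). They were selected on the measured level in controls, as the sequences with the highest mean over the 3 control arrays among those with at least 1 probe well above background on all 3 of them. The 150 made up 0.990% of the 15156 sequences on the array and 2.97% of the 5049 that met the background condition. The level of a sequence is the log2 of its background-subtracted spot signal minus the 75th percentile of that array, averaged over its usable probes, so a level of 1 is 2-fold above the percentile. Because these values chose the members, their levels in controls and their differences from controls are given as a description, with no test. The comparison of 50 with 0.5 µg/L uses no control value in its difference and was tested. The probes averaged for it were, however, those usable on the control arrays.

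Juvenile sea bream (Sparus aurata, about 50 g) were kept in artificial seawater holding 0 (control), 0.5 or 50 µg/L AuNP. RNA came from the livers of 9 fish per concentration, and the extracts of 3 fish were combined into each pool. One array was run per pool, so each group has n = 3. Fish of a concentration shared tanks, set up in duplicate, and the labels do not tie pools to tanks. All p-values therefore measure the spread between pools of fish and not between separate exposures.

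In fish as in other vertebrates, the liver makes most proteins of the blood plasma, among them apolipoproteins that carry lipids, iron and haem carriers, clotting factors and complement. Transcripts for these secreted proteins, together with those for ribosomal proteins and for enzymes of intermediary metabolism, typically dominate liver messenger RNA. A set of brightest sequences is therefore where such transcripts would be looked for. The files pair the sequences with names of contigs and clones but with no gene, and 0 of the 15156 names matched the RefSeq gene table for the species. Which proteins the 150 encode was not analysed here, and the label of liver could not be set against marker genes. No probe letters come with the files, so no sequence is shown.

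By their names, 84 of the 150 were contigs named Contig and a number, 42 were clones of the cDN series, 19 were contigs of the Seabream_2006 set and 5 were SCT clones. What these prefixes stand for is not given in the sources used here. Contigs named Contig and a number formed 56.0% of the brightest set, against 29.4% of the detected sequences, while cDN clones formed 28.0% against 42.9%. The share of members within each kind ran from 5.67% of 1482 detected Contig sequences, over 4.67% of the SCT clones and 1.94% of 2167 cDN clones, to 1.52% of 1250 Seabream_2006 contigs. None of the 42 detected Mackenzie contigs was a member. Among the 14 numbered cDN series, cDN01 gave 17 members of 273 detected clones (6.23%), and each of the others gave between 0% and 3.03%. The 84 Contig members also leaned to low numbers, with 62 of them (73.8%) below 2053, the median number of the detected Contig sequences. These name patterns were noticed after the members were known and carry no test.

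Control levels fell smoothly along the ranking, from 10.45 for the brightest member over a median of 7.60 to 5.97 for the last, a 22.3-fold span. No gap marked the limit of rank 150. Just inside it, Contig1302 averaged 5.98 and Contig1513 averaged 5.97, and just outside it Seabream_2006-01-03-CL4614Contig1 averaged 5.96 and cDN09P0004B12.F.ab1 averaged 5.95. A probe's brightness also depends on how well that probe binds, so the order ranks signal, not molecules. Of the members, 113 were measured by 3 usable probes, 25 by 1, 7 by 4 and 5 by 2. All 150 had every usable probe well above background on all 9 arrays, and no spot was saturated. For 11 members, 1 or more probes on the array failed the background condition in controls and were left out, and for 7 of them only 1 of 3 probes was left.

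**Figure D1:**
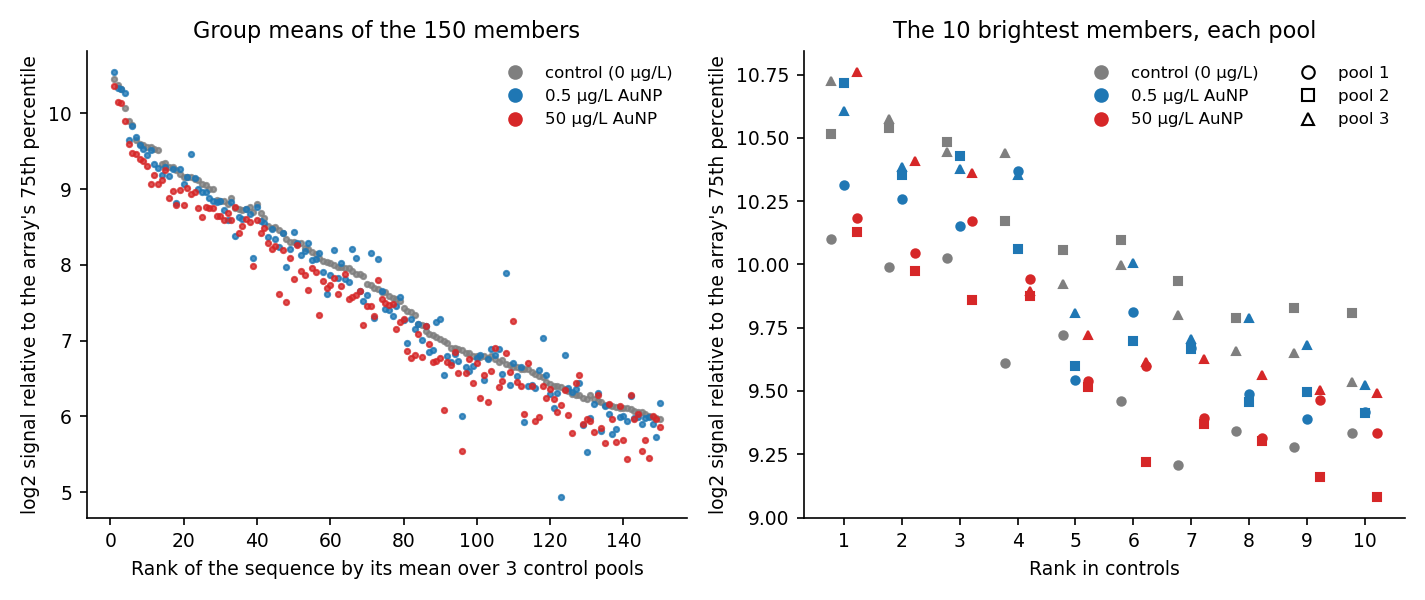
Left, mean log2 level (relative to the array's 75th percentile) of each of the 150 members in controls, at 0.5 and at 50 µg/L AuNP, against rank in controls. Right, the level of the 10 brightest members in each of the 9 pools (colour for the group, shape for the pool number). The exposed groups follow the control curve from 10.45 down to 5.97, with single members standing off it towards the dimmer end.

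The brightest member, Seabream_2006-01-03-CL4900Contig1, had levels of 10.10, 10.52 and 10.73 in control pools 1, 2 and 3, 10.31, 10.71 and 10.61 in the 0.5 µg/L group, and 10.18, 10.13 and 10.76 in the 50 µg/L group. The 3 groups overlapped, and this sequence was the brightest of the whole array on 7 of the 9 arrays. Ranks 2 and 3, Contig1861 and cDN06P0006E06.F.ab1, averaged 10.37 and 10.32 in controls, 10.33 and 10.32 in the 0.5 µg/L group, and 10.14 and 10.13 in the 50 µg/L group, and they held ranks 2 and 3 in each group. Contig2035, rank 4 in all 3 groups, had levels of 9.61, 10.17 and 10.44 in controls, 10.37, 10.06 and 10.35 in the 0.5 µg/L group, and 9.94, 9.87 and 9.90 in the 50 µg/L group. Its 3 pools at 50 µg/L all lay below its 3 pools at 0.5 µg/L, by a mean log2 difference of -0.36 ± 0.22 (SE), while control pool 1 lay below them all. That difference did not pass the limma test (adjusted p = 0.380). Ranks 5 to 10 were Contig1492, Contig1496, Contig450, Contig1508, Contig1008 and Contig1486. All 10 were among the 10 brightest at 50 µg/L, and 9 of the 10 were among the 10 brightest at 0.5 µg/L, where Contig1486 ranked 12.

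To ask how much of the signal the set carries, the linear levels of the 150 were summed and divided by the sum over all 15156 sequences. The share was 65.2%, 69.3% and 68.0% in the 3 control pools (67.5 ± 2.12%, SD, n = 3). It was 65.4%, 66.0% and 66.2% in the 0.5 µg/L group (65.8 ± 0.418%) and 64.1%, 61.5% and 66.2% in the 50 µg/L group (63.9 ± 2.39%). Control pools 2 and 3 lay above all exposed pools, control pool 1 lay among them, and pool 2 at 50 µg/L was the lowest. The share at 50 µg/L was 1.91 percentage points below that at 0.5 µg/L (difference -1.91; exact two-sided permutation test, p = 0.4, with 0.1 the smallest p that 3 against 3 allows). The pools of both groups overlapped. The direction turned with normexp background correction, which gave 1.87 points, and leaving out each exposed array in turn gave -3.07 to -0.689. Summed over all spots in place of 1 value per sequence, the members' share was 77.0 ± 1.81% in controls, 76.2 ± 0.393% in the 0.5 µg/L group and 74.5 ± 1.73% in the 50 µg/L group. Within the pairs of pools of one number, which shared a slide, the difference of 50 minus 0.5 µg/L was -1.32 points on slide 1, -4.48 on slide 2 and 0.06 on slide 3.

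The choice of members on control arrays could raise the control share. Choosing 150 sequences on only 2 control arrays and reading them on the array left out gave 64.9%, 69.2% and 68.0% (67.4 ± 2.20%), and 147 of the 150 were shared with the full choice each time. With each array ranking its own 150 brightest, the share averaged 67.7 ± 2.14% in controls, 66.4 ± 0.620% in the 0.5 µg/L group and 64.7 ± 1.91% in the 50 µg/L group (SD, n = 3 each). The probes averaged for a detected sequence were here too those usable on the control arrays, so part of that choice remains. The difference was -1.64 points for 50 minus 0.5 µg/L, -2.96 points for 50 µg/L minus control and -1.32 points for 0.5 µg/L minus control. For 50 against 0.5 µg/L the exact permutation test gave p = 0.3 (adjusted p = 0.4 over all 3 pairs of groups), in a design where no p can fall below 0.1. The differences from control are given as a description, without a p, because the control arrays chose those probes.

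**Figure D2:**
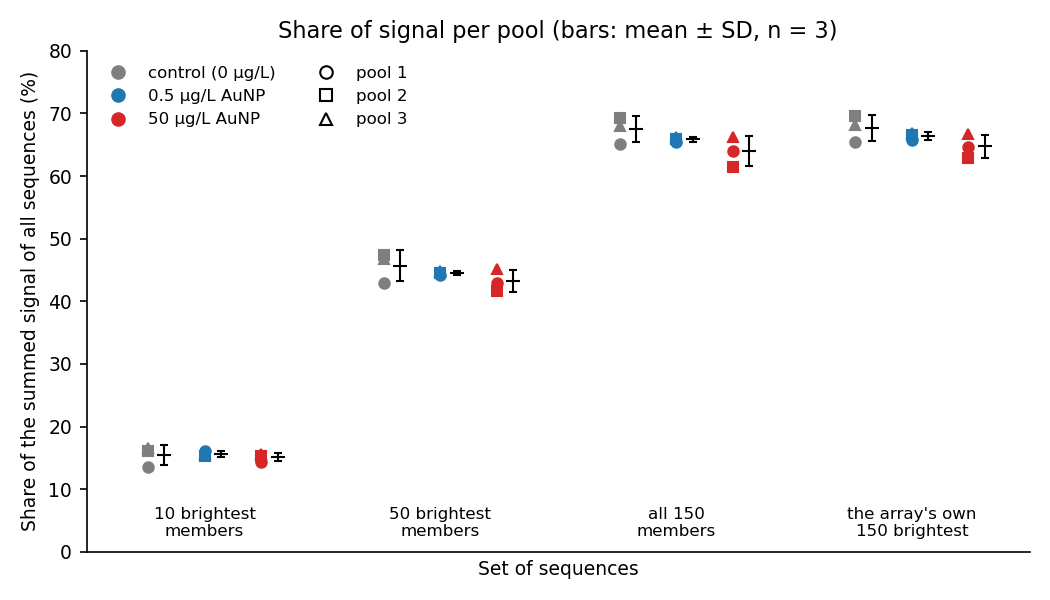
Share of the summed linear signal of all sequences, in percent, carried by the 10 and 50 brightest members, by all 150 and by each array's own 150 brightest; points are pools and bars are mean ± SD (n = 3). The 150 members carry between 61.5% and 69.3% on every array, and the ranges of the 3 groups overlap for all 150 members.

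Much of the share sat in the first ranks. The brightest member alone carried 2.15 ± 0.330% of the signal in controls, 2.33 ± 0.212% in the 0.5 µg/L group and 2.30 ± 0.377% in the 50 µg/L group (SD, n = 3 each). The 10 brightest carried 15.4 ± 1.63% in controls, 15.7 ± 0.466% in the 0.5 µg/L group and 15.1 ± 0.633% in the 50 µg/L group. For the 50 brightest the shares were 45.7 ± 2.46%, 44.5 ± 0.288% and 43.3 ± 1.79% in the same order of concentration. The 150 sequences that came next carried only 8.19 ± 0.466% in controls, 8.52 ± 0.280% in the 0.5 µg/L group and 8.45 ± 0.370% in the 50 µg/L group. Counted from the brightest sequence of each array, 50% of its signal was reached after 67, 55 and 57 sequences in controls, after 62, 63 and 61 at 0.5 µg/L and after 68, 72 and 61 at 50 µg/L. By name, the 84 Contig members carried 44.2 ± 2.73% in controls, 42.8 ± 1.42% in the 0.5 µg/L group and 41.8 ± 0.635% in the 50 µg/L group.

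Membership held across the groups. Of the 150 members, 143 were among the 150 brightest by the mean at 50 µg/L and 143 at 0.5 µg/L, and 137 were so in both. On single arrays, 144, 144 and 146 members were in the array's own 150 in controls, 140, 140 and 138 in the 0.5 µg/L group and 143, 138 and 141 in the 50 µg/L group, and 119 members were there on all 9. The 7 sequences that entered in each exposed group had all ranked within the first 300 in controls. Seabream_2006-01-03-CL2845Contig1, rank 138 in controls, was the 1 member outside both exposed lists, at rank 152 at 50 µg/L and rank 154 at 0.5 µg/L. It lay at 6.26, 6.19 and 5.92 in controls, 5.40, 6.12 and 5.99 in the 0.5 µg/L group and 5.94, 5.41 and 5.65 in the 50 µg/L group, with the groups overlapping. Over the 150 members, Spearman's rho between the group mean and the control mean was 0.974 in the 50 µg/L group and 0.976 in the 0.5 µg/L group. These are correlations across sequences that share probes and arrays, given without a p.

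No member passed the test between 50 and 0.5 µg/L. In 1 limma fit over all 9 arrays and 5049 sequences, 34 sequences passed an adjusted p of 0.05 (0.673%), 32 of them higher and 2 lower at 50 µg/L, and 0 of the 150 members did. With the replicate block, where each pool number is 1 slide, 0 of the 5049 sequences passed in limma, and 901 did at an unadjusted p under 0.05, 9 of them members. The smallest adjusted p of a member was 0.146. At an unadjusted p under 0.05, 13 members passed, all lower at 50 µg/L, against 20.1% of all sequences tested. The 13 are 8.67% of the members, and 12.4% of all sequences passed in the lower direction. A mean difference of 2-fold or more was seen in 2 members, against 3.33% of all sequences, and one of 1.5-fold or more in 10 members, against 17.6%. For 124 members (82.7%), the 95% interval of the difference lay within 2-fold either way, against 66.1% of all sequences. In the remaining members the interval reached past 2-fold.

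Member levels leaned lower at 50 µg/L, as did those of the whole table. The median log2 difference of 50 minus 0.5 µg/L was -0.17 over members and -0.12 over all sequences, with median SEs of 0.22 and 0.23. The mean was lower at 50 µg/L for 116 members (77.3%), against 61.5% of all sequences. This split turned with the scaling: 105 members were higher at 50 µg/L with normexp background correction, 81 with quantile normalization and 141 with scaling to the spike-in RNA. In 24 members (16.0%) every pool at 50 µg/L lay below every pool at 0.5 µg/L, and in 0 every pool lay above. Groups that did not overlap made up 24.0% of all sequences, with 14.7% below and 9.33% above. Pool 2 at 50 µg/L weighed on the median and on the direction: without it the median member difference was -0.04, and the mean was lower for 86 members (57.3%, against 56.8% of all sequences). At an unadjusted p under 0.05, 0 members then passed as lower, against 9.96% of all sequences, and 1 passed as higher, against 9.33%. Leaving out an array cannot lower the count without overlap, so that count cannot show how much pool 2 weighed. Without that pool, 25 members lay below (16.7%, against 19.6% of all sequences) and 5 above (3.33%, against 16.4%). Within slides, the median member difference was 0.03 on slide 1, -0.46 on slide 2 and -0.10 on slide 3, against -0.04, -0.21 and -0.07 over all sequences.

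**Figure D3:**
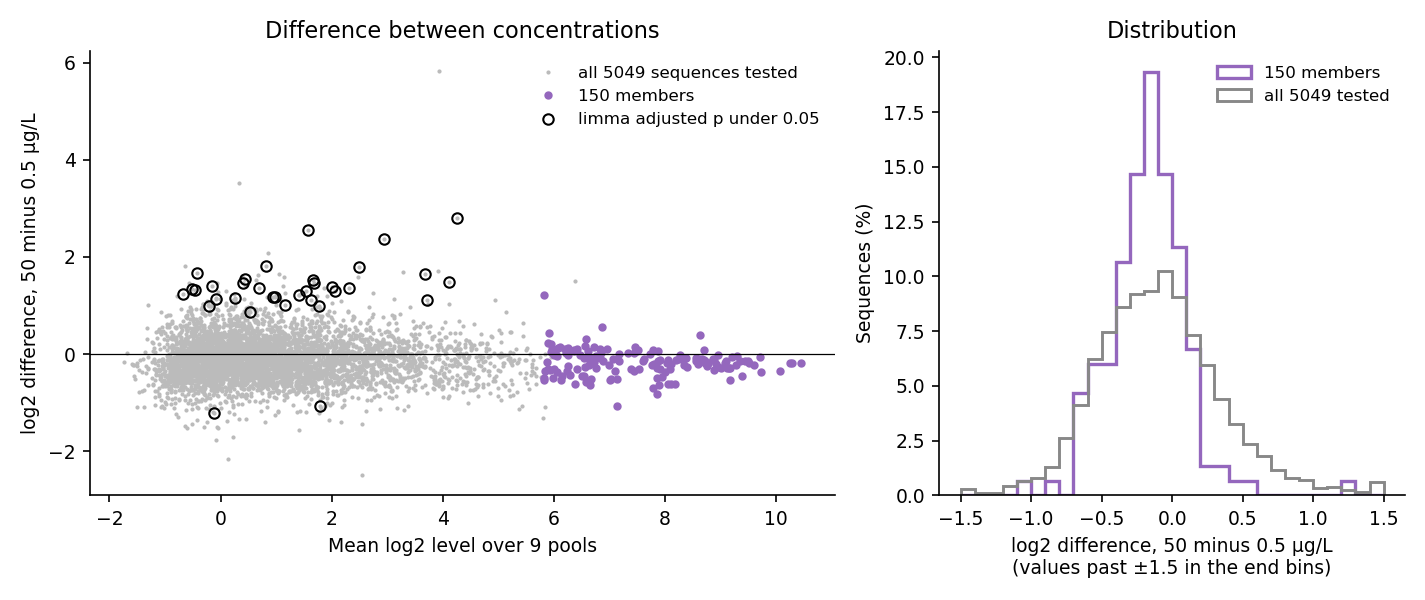
Left, mean log2 difference of 50 minus 0.5 µg/L against mean log2 level over the 9 pools, for the 150 members and all 5049 sequences tested, with the 34 sequences at a limma adjusted p under 0.05 in the fit without a replicate block ringed. Right, the same differences as a share of each set, in percent. No ring falls on a member, and the members' differences are centred at -0.17.

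The members with the smallest p in each direction show the size of these differences. In cDN01P0004I22.F.ab1, rank 71, levels were 7.34, 7.14 and 7.90 at 50 µg/L, against 8.22, 8.11 and 8.15 at 0.5 µg/L. The groups did not overlap, and the log2 difference was -0.70 ± 0.23 (SE, limma adjusted p = 0.146). It rests on 2 spots, from 2 of the 3 probes of this clone, which gave differences of -0.52 and -0.88. The controls, at 7.72, 8.06 and 7.43, lay between 0.5 µg/L and the lower pools of 50 µg/L. Seabream_2006-01-03-CL2832Contig1, rank 141, had levels of 5.43, 5.28 and 5.62 at 50 µg/L, against 5.91, 5.91 and 5.99 at 0.5 µg/L, a difference of -0.50 ± 0.18 (limma adjusted p = 0.173). Its pools at 50 µg/L also lay below its controls, at 6.37, 5.88 and 6.07. In the other direction, cDN04P0001A12.F.ab1, rank 123, had levels of 6.46, 5.56 and 6.45 at 50 µg/L, against 6.79, 4.03 and 4.01 at 0.5 µg/L. Here the groups overlapped, since 1 pool at 0.5 µg/L was the highest of the 6, and the difference of 1.21 ± 0.68 did not pass the limma test (adjusted p = 0.339). The level of this clone rests on 1 spot of 1 probe, the only one of its 3 probes that met the background condition. For cDN07P0005H22.F.ab1, rank 110, levels were 7.23, 7.07 and 7.49 at 50 µg/L, against 6.21, 7.72 and 6.17 at 0.5 µg/L, and the difference of 0.56 ± 0.39 did not pass either (limma adjusted p = 0.440).

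Against the controls, which chose the members, both exposed groups are described without a test, and both comparisons share the same 3 control arrays. Choosing members for high control levels by itself favours lower means in the other groups, and its part in these differences was not tested. The median log2 difference over members was -0.25 for 50 µg/L minus control and -0.10 for 0.5 µg/L minus control, against -0.12 and -0.02 over all sequences. The mean was lower than in controls for 90.7% of members at 50 µg/L, against 64.0% of all sequences, and for 71.3% at 0.5 µg/L, against 53.8%. For 50 µg/L the split moved with the scaling. With quantile normalization 78 members were higher and 72 lower than in controls, and with spike-in scaling 127 were higher and 23 lower. With normexp 128 were lower, and with median centring 120. A constant per array moves all sequences alike, and with spike-in scaling the median over all sequences was 0.34. Relative to all sequences, the members' median difference for 50 µg/L was -0.13 wherever only a constant per array changed. It was -0.11 with normexp and 0.09 with quantile normalization. For 0.5 µg/L most members were lower than in controls under each of these scalings, by 140 to 10 with normexp. Centring on the members' own median pulls the split towards even by construction. Nothing is read from its 78 higher and 72 lower for 50 µg/L, or its 65 and 85 for 0.5 µg/L. In the same fit no sequence of the 5049 was called in either comparison (0%), members included. At an unadjusted p under 0.05, 13.3% of all sequences passed for 50 µg/L against control and 5.35% for 0.5 µg/L against control. Nothing is read from these calls for the members. In bulk liver RNA, fewer cells of a type and less RNA per cell cannot be told apart.

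The scale of the arrays differed between pools, and the scaled levels depend on it. The unscaled 75th percentile was 8.14, 7.54 and 7.52 (log2 signal) in controls, 7.93, 7.66 and 7.70 in the 0.5 µg/L group and 8.12, 8.19 and 7.78 in the 50 µg/L group, a range of 0.67. The unscaled mean of the members was 15.66, 15.34 and 15.23 in controls, 15.36, 15.30 and 15.38 in the 0.5 µg/L group and 15.61, 15.33 and 15.37 in the 50 µg/L group, a range of 0.43. Before scaling, the members of pool 2 at 50 µg/L were thus level with those of most other pools, while that array's percentile was the highest. After scaling, their mean was 7.52, 7.79 and 7.71 in controls, 7.43, 7.64 and 7.68 in the 0.5 µg/L group and 7.49, 7.14 and 7.59 in the 50 µg/L group. On this scale, 92 members (61.3%) had the lowest of their 9 values on pool 2 at 50 µg/L, against 26.2% of all sequences. The highest value of 62 members lay on control pool 2, against 10.0%. Choosing members for high control levels favours a highest value on a control array and a lowest value on an exposed one. Its part in these counts was not tested. Pool 2 at 50 µg/L was also lowest in measures that a constant per array does not change. The member share there was 61.5%, and the members' median lay 6.43 above that of all sequences tested. The cause was not tested.

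**Figure D4:**
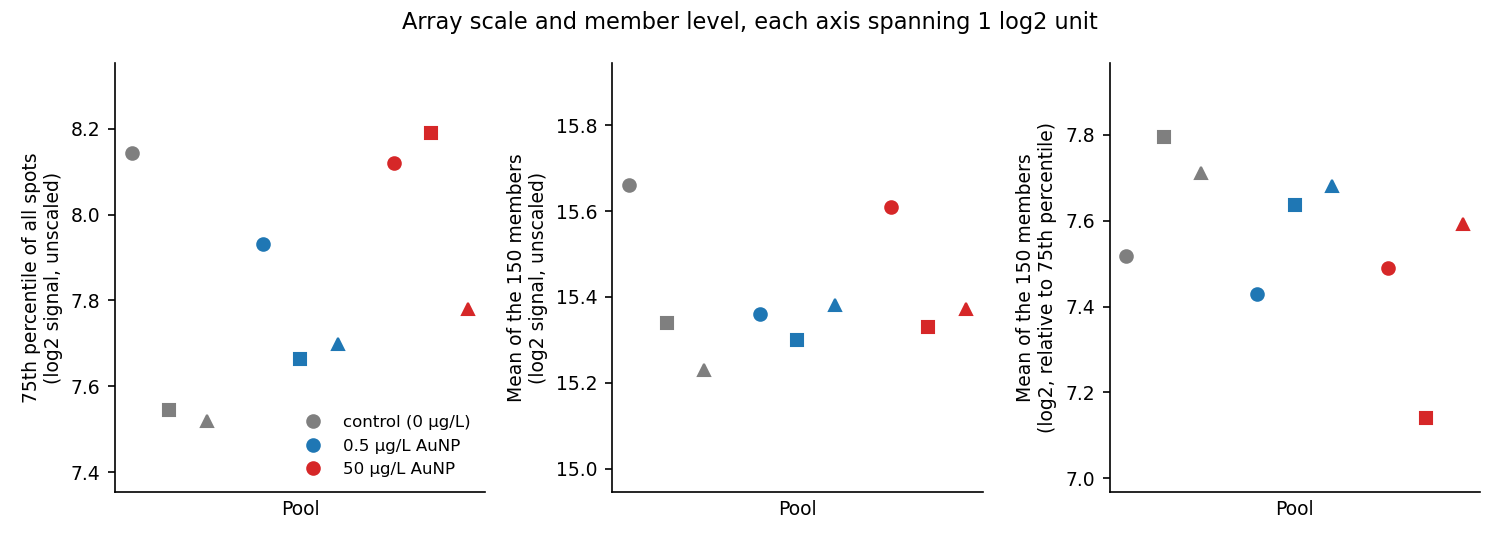
The 9 pools, left to right as pools 1, 2 and 3 of controls, 0.5 and 50 µg/L: the unscaled 75th percentile, the unscaled mean of the 150 members and their scaled mean (all log2, each axis spanning 1 unit). Pool 2 at 50 µg/L is highest in the first view at 8.19 and lowest in the last at 7.14.

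The direction of the lean at 50 µg/L depended on the scaling. The median member difference of 50 minus 0.5 µg/L, -0.17 with the 75th percentile, was 0.00 with median centring, 0.03 with quantile normalization, 0.11 with normexp background correction and 0.43 with scaling to the spike-in RNA. Over all sequences the medians were -0.12 with the 75th percentile, 0.05 with median centring, -0.08 with quantile normalization, -0.01 with normexp and 0.48 with the spike-ins. Relative to all sequences, the members lay 0.05 lower wherever only a constant per array changed, 0.11 higher with quantile normalization and 0.13 higher with normexp. The members were read in a range of their own on the scanner. Between 78.2% and 88.3% of their spots per array carried the flag for values taken from a second scan at low gain, against 1.34% to 1.55% of all spots. Its part in the differences was not tested.

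Between pools of a group, the members were about as steady as the other sequences. The median SD of the log2 level over members was 0.247 in controls, 0.226 in the 0.5 µg/L group and 0.266 in the 50 µg/L group, against 0.210, 0.240 and 0.283 over all sequences. Pooled over both exposed groups, the median SD was 0.205 for ranks 1 to 50, 0.271 for the next 50 and 0.314 for the last 50. Controls did not follow this order, with 0.251, 0.260 and 0.204 in the same order of rank. At 0.5 µg/L alone it was 0.170, 0.252 and 0.244, and at 50 µg/L alone 0.225, 0.276 and 0.291. Part of this spread was common to the set: measured from the members' own median on each array, the pooled median SD was 0.185 over members, against 0.256 with the 75th percentile. That centring uses the members' own values and so favours them. Over all sequences the SD was 0.319 with it, against 0.288. Spots of one probe differed far less, with a median SD of 0.04 over the 220 member probes with 2 spots, against 0.08 over all used probes with 2 spots. Different probes of a member also moved alike. In 109 of the 125 members with 2 or more usable probes (87.2%), all probes gave the same direction of 50 minus 0.5 µg/L, against 79.2% of all such sequences, and the median SD of that difference between the probes of a sequence was 0.05 for members and 0.09 for all.

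Across all 9 arrays, the highest and lowest value of a member differed by a median of 0.85 (log2), or 1.80-fold, against 0.97 over all sequences. In 102 members (68.0%) the 9 values stayed within 2-fold, against 52.3% of all sequences. Without pool 2 at 50 µg/L it was 120 members (80.0%), against 60.2%. With all 9 arrays, 43 of the 50 brightest members did, but only 30 of ranks 51 to 100 and 29 of ranks 101 to 150. Of the 150 sequences that came next, 51.3% did. All usable probes were well above background on all 9 arrays in only 3281 of the 5049 sequences, against all 150 members. The steadiest members between pools of an exposed group were cDN01P0004I08.F.ab1, with an SD of 0.10, and Contig450, with 0.10. In cDN01P0004I08.F.ab1, levels were 7.91, 7.92 and 8.16 in controls, 8.14, 8.17 and 8.29 in the 0.5 µg/L group and 7.94, 7.71 and 7.81 in the 50 µg/L group. Its pools at 50 µg/L lay below those at 0.5 µg/L without overlap, by -0.38 ± 0.16 (SE, limma adjusted p = 0.225), and its controls overlapped both. In Contig450, levels were 9.21, 9.93 and 9.80 in controls, 9.67, 9.67 and 9.70 in the 0.5 µg/L group and 9.39, 9.37 and 9.63 in the 50 µg/L group, so the controls spread more widely than the exposed pools.

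The least steady members were cDN04P0001A12.F.ab1, with an SD of 1.19 between pools of an exposed group, and Contig2721, with 0.78, both read from 1 spot. Contig2721, rank 128, lay at 6.90, 5.84 and 6.11 in controls, 5.72, 7.12 and 6.49 in the 0.5 µg/L group and 7.21, 5.60 and 6.84 in the 50 µg/L group, with no order among the groups. A group of 5 members (3.33%) spanned more than 4-fold over the 9 arrays, against 7.51% of all sequences. They were Contig3549, cDN01P0006H12.F.ab1, Seabream_2006-01-03-CL4370Contig1, cDN04P0001A12.F.ab1 and Contig2500, named after their values were seen. The widest span, 12.8-fold, was that of Seabream_2006-01-03-CL4370Contig1, with levels of 4.52, 7.72 and 7.81 in controls, 8.20, 7.68 and 7.81 in the 0.5 µg/L group and 6.84, 6.82 and 6.85 in the 50 µg/L group. Control pool 1 alone stood far below the rest. Apart from it, the pools at 50 µg/L lay below all others, with a difference from 0.5 µg/L of -1.06 ± 0.70 (SE, limma adjusted p = 0.417). Without control pool 1, which widens the spread that the fit shares between groups, that difference passed (limma adjusted p = 0.0433). It was then 1 of 33 sequences that passed, of 5049 tested. The level of Seabream_2006-01-03-CL4370Contig1 rests on 1 spot of 1 probe. The other 2 probes of this sequence did not meet the condition of being well above background on all 3 control arrays.

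**Figure D5:**
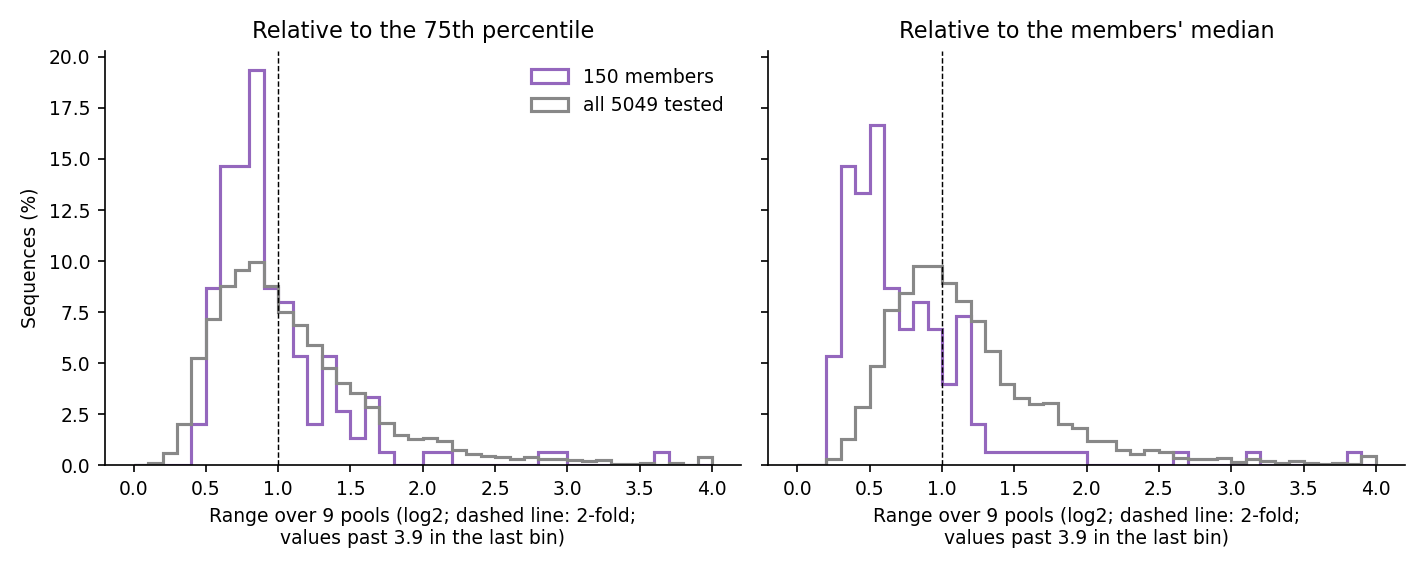
Range of the log2 level over the 9 pools, as a share of the 150 members and of all 5049 sequences tested, in percent; left relative to the 75th percentile, right relative to the members' median on each array. The dashed line marks 2-fold: 68.0% of members lie left of it in the first panel and 80.0% in the second. Of all sequences it is 52.3% and 44.9%. The second panel is centred on the members' own values, which favours the members.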

How the data were processed

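The deposited scanner output gives, per spot, a processed intensity (linear, with the background already subtracted) from Agilent Feature Extraction 10.7.3.1, per the file headers. In the table of values from the authors, 280152 entries equalled the log2 of another background-subtracted signal of the scanner output, unscaled between arrays. That signal is not the processed intensity used here. The remaining 126828 entries were empty, and there that signal was not positive. The scale, centring and direction of the authors' values are therefore known, and column medians lay between 6.55 and 7.33. Of 45220 spots, 1417 controls were left out, and flagged spots were left out where a probe had others. A probe was usable if at least 50% of its spots were well above background on all 3 control arrays; 8972 probes of 5049 sequences were. Spots were averaged per probe and probes per sequence. Limma 3.58.1 (R 4.3.3; lmFit and eBayes, 3 groups in 1 fit, Benjamini-Hochberg over 5049 sequences, threshold 0.05) gave the adjusted p-values, and exact permutation tests gave those of shares. The scripts were tested on simulated data. The number of arrays limits the precision.

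The members, lists and tests were chosen with earlier results of these data known. Named are the 10 brightest members, those at the limit, the 2 with the smallest p in each direction, the 2 with the largest and smallest SD and the member that left both exposed lists. Each slide held 1 pool number and 1 array of every group, in the same positions, so a group's effect and its position on the slide cannot be told apart. Alternatives covered background correction, scaling, probes, filters, variance models, blocks and arrays left out; centring on the members' median and the counts without pool 2 at 50 µg/L were added after seeing the data. Normexp (offset 50) used median spot signals.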

Additional observations from a re-analysis of the deposited data

Results flagged for a closer look

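On pool 2 at 50 µg/L, 3 sequences that did not meet the background condition in controls had signal bright enough to enter that array's own 150. They lie outside the table of sequences tested. The level of cDN03P0003F23.F.ab1 was 8.16 there, rank 39 on the array, against at most -2.24 on the other 8 arrays. Mackenzie-051508-Contig483 reached 7.33, rank 66, against at most -1.52 elsewhere. The level of cDN11P0005I23.F.ab1 was 5.47, rank 146, against at most -2.32 elsewhere. Each was measured by 3 probes. Sequences not detected in controls carried 5.19% of the signal of that array, and between 2.64% and 3.63% of the signal of the other 8. What these transcripts are was not analysed here.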

How the results depend on the processing

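No member was called between 50 and 0.5 µg/L in any setting tried except with scaling to the spike-in RNA and without control pool 1. With the spike-ins it was 1 member (cDN04P0001A12.F.ab1, log2 difference 1.81, limma adjusted p = 0.0470), among 311 of the 5049 sequences. Without control pool 1 it was 1 member, among 33 of the 5049 sequences. Leaving out each array gave 0 to 1. At an unadjusted p under 0.05 there were 13 members for 50 against 0.5 µg/L, against 20.1% of all sequences, 16 for 50 µg/L against control (13.3%) and 1 for 0.5 µg/L against control (5.35%); nothing is read from the counts against controls, which chose the members. Leaving out each array gave 0 to 0 calls for both comparisons with control. The median member difference of 50 minus 0.5 µg/L was 0.11 with normexp and 0.43 with spike-ins, and -0.26 to -0.04 with each array left out. The member share, 50 minus 0.5 µg/L, was 1.87 points with normexp and -3.07 to -0.689 with each array left out. With each array's own 150, normexp gave 2.09 points for 50 minus 0.5 µg/L and -4.07 for 0.5 µg/L minus control, and arrays left out gave -2.63 to -0.723 for 50 minus 0.5 µg/L, -4.12 to -2.01 for 50 µg/L minus control and -2.48 to -0.365 for 0.5 µg/L minus control. The median between-pool SD over the 3 groups, 0.246, was 0.156 with quantile normalization, 0.362 with normexp and 0.176 centred on the members' median. Members whose groups did not overlap numbered 24 (24.0% of all sequences), but 2 with normexp (15.2%). Of 26 with quantile normalization (24.8%) 14 were higher at 50 µg/L (11.2%), of 28 with spike-ins (40.1%) 27 were (39.6%), of 18 centred on the members' median (21.5%) 12 were (17.3%), and of 30 without pool 2 at 50 µg/L (36.0%) 5 were (16.4%), with the share of all sequences in parentheses. The cause of these shifts was not tested. Each pool number was 1 slide, yet deviations of arrays of one number were weakly correlated (-0.16 to 0.14, 1 of 9 over 0.1). Over the members the correlations were -0.32 to 0.09. Such values cannot show that an effect of the slide is absent. With the replicate block, 0 members and 0 of 5049 sequences were called, and the median member difference stayed -0.17. The share difference within pool numbers had an exact p of 0.5. With only 3 pool numbers, such a p cannot fall below the threshold of 0.05. Over all sequences the 34 calls became 0 with normexp, with the replicate block, with no filter and without pool 1 or 3 at either concentration or control pool 3, 16 without control pool 2, 56 without pool 2 at 50 µg/L, 4 with deposited values or 2 groups alone, 58 with a variance trend, 97 centred on the members' median, 112 with median centring and 311 with spike-ins.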
